A study of Mus musculus with 12 samples.

Results

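Described here are 33 chromatin and transcription regulators whose human counterparts are linked to autism or intellectual disability, among the 55487 gene identifiers counted in 12 libraries of mouse brain RNA. They were chosen from their known links to these disorders, with earlier results of these data known. Each symbol matched 1 Ensembl gene. All 33 passed the filter on low counts in every comparison. The study asked what loss of exon 7 of Auts2, itself a gene linked to autism and a partner of Polycomb proteins on chromatin, does to gene expression in the brain.

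Each library came from 1 male mouse, with 3 mice in each of 4 groups. At postnatal day 0 (P0) the forebrain was taken from knockouts labelled cmv-cre_auts2-ex7koko and from littermate controls labelled BL6 WTLM, called wild type here. At postnatal day 14 (P14) the hippocampus was taken from knockouts labelled nes-cre_auts2-ex7koko and from littermate controls labelled auts2-ex7-fl-het. All knockouts derive from the floxed allele Auts2tm1.1Dare, crossed to Cmv-cre or Nes-cre strains. Cmv-cre is active throughout the body from the early embryo, and Nes-cre in neural progenitors and their progeny, so that cells outside the neural lineage keep the exon in the P14 knockouts. The P14 labels name no Cre for the controls, so whether an allele is deleted in them is not given in the sources used here. Between P0 and P14 the tissue, the age, the Cre line and the kind of control all differ at once. Litters are not named, and p-values measure the spread between these mice.

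DNA in the nucleus is wrapped on histones, and the proteins described here set how open that packing is. Remodellers of the CHD and BAF families slide or evict nucleosomes, methyltransferases and demethylases write and erase marks on histone tails or on DNA, and corepressor and acetylation proteins tie those marks to transcription. Many are sensitive to dosage, and loss of a single copy of genes such as CHD8, ADNP, ARID1B or ANKRD11 causes a human neurodevelopmental disorder. In the developing brain they act in progenitors and in newborn neurons, and several stay on in mature neurons.

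Depth lay between 11247150 and 16796797 counts in the P0 libraries and between 16830720 and 23340621 in the P14 libraries. All 5 forebrain markers and all 6 hippocampus markers on the fixed lists had counts in every library. Auts2, the targeted gene, is counted over all its isoforms, so its total does not measure exon 7. It was at 160, 136 and 155 CPM (counts scaled to library size) in the P0 wild types and 165, 182 and 161 CPM in the P0 knockouts. At P14 it was at 97.5, 98.0 and 110 CPM in the controls and 93.0, 77.5 and 75.2 CPM in the knockouts. The groups did not overlap at either age, in opposite directions, and neither difference passed (edgeR adjusted p 0.362 at P0 and 0.111 at P14). At P14 it passed with no filter on low counts (-0.30, edgeR adjusted p 0.0209). Its interaction of genotype and context (-0.48, edgeR adjusted p 0.0565) passed with no filter (edgeR adjusted p 0.00479), a GC content offset (edgeR adjusted p 0.0398) or a gene length offset (edgeR adjusted p 0.00920), and by DESeq2 (adjusted p 0.0284). With 1 library left out, that interaction passed in 2 of 12 fits (edgeR adjusted p 0.029 to 0.185). Of the 12 libraries, 2 stood apart in long genes. Against the other 2 controls, the third P14 control was higher by a median of 0.17 on the log2 scale over 1482 tested genes with at least 10000 exonic bases. The third P0 knockout differed from the wild-type mean by a median of -0.15 over 1467 such genes. Of the 33 regulators, 21 have at least 10000 exonic bases. Their median exonic length was 13786 bases, against 3895 over the 18174 genes tested in all libraries that have an annotated length. Results that rest on these 2 libraries are given with and without them.

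Start sites of these genes are shown first because most of those matched share a feature, many CG dinucleotides, that the choice of genes did not use. RefSeq promoters on GRCm38.p6, windows of 300 bases around a start site, were matched for 24 of the 33 genes (29 promoters). Their median number of CG dinucleotides was 32 (range 1 to 61), against 7 over all 32851 promoters (range 0 to 67). A GC box (GGGCGG on either strand) was present in 25 of 29 (86.2%), against 35.7% of all promoters. A CCAAT box (CCAAT on either strand) was present in 8 (27.6%, against 37.4%), and TATAAA on either strand in 1 (3.45%, against 13.6%). These are matches of letters, not measured binding sites. Promoters of other well expressed genes were not compared separately, so the feature is not shown to be particular to this group. The NRF1 motif GCATGCGC, searched on both strands, was in 0 of 29 promoters, against 2.71% of all. None of these motifs is contained in another. Of the 5 promoters below, 4 belong to genes whose level differed between the contexts (Bcl11a and Ehmt1 lower at P14, Hdac4 and Tbl1xr1 higher). The fifth is that of Med13l, which had the most CG dinucleotides and whose genotype difference did not pass. They are written 5′ to 3′ on the gene's strand, with GC and CCAAT boxes in capitals. Bcl11a lies at chr11:24080445-24080744 on the plus strand, Ehmt1 at chr2:24919560-24919859 on the minus strand, Hdac4 at chr1:92180292-92180591 on the minus strand, Tbl1xr1 at chr3:22076402-22076701 on the plus strand and Med13l at chr5:118560469-118560768 on the plus strand. The windows of Bcl11a and Hdac4 lie inside the annotated genes, whose outermost starts are at 24078056 and 92195699, and do not hold those starts.
Bcl11a: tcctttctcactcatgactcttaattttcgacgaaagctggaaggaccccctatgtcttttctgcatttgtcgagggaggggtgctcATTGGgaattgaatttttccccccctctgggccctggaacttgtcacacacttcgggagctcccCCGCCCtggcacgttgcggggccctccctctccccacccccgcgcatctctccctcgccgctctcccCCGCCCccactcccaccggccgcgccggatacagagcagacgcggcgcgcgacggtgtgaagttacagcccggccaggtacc
Ehmt1: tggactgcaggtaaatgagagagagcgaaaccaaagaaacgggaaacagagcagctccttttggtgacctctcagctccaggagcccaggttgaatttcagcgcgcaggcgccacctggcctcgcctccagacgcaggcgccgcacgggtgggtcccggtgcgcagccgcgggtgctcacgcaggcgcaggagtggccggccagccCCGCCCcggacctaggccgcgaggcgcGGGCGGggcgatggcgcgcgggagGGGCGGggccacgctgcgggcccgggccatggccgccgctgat
Hdac4: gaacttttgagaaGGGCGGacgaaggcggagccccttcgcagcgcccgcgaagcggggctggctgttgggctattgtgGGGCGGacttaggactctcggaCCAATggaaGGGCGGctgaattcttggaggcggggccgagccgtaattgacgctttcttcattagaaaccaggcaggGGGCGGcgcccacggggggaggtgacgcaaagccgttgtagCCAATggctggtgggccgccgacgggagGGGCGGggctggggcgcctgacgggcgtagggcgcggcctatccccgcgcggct
Tbl1xr1: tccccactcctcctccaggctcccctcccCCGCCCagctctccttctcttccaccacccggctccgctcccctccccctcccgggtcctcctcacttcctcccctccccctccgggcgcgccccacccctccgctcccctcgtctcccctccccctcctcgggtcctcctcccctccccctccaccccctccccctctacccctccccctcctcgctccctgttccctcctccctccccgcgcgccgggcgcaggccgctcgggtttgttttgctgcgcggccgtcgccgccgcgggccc
Med13l: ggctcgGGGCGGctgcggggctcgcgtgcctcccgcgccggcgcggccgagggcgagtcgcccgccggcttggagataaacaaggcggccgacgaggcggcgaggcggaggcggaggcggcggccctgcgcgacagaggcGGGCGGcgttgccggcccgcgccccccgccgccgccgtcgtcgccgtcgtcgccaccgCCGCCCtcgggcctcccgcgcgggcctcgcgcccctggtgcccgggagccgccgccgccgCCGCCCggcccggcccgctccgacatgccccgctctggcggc
The 2 genes lower at P14 and the 2 higher at P14 all had GC boxes, with 2 in Bcl11a, 3 in Ehmt1, 5 in Hdac4 and 1 in Tbl1xr1. Med13l had 4, and 61 CG dinucleotides, the highest number among the promoters of the group. The CCAAT box was present once in Bcl11a and in 2 places in Hdac4.

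Most of the regulators were well expressed. Per kilobase of exonic length, the median regulator was at 9.62 CPM per kb in P0 wild-type forebrain and 6.79 CPM per kb in P14 control hippocampus, against 3.84 and 3.85 over all tested genes. Chd3, a remodelling ATPase of the NuRD complex, was the highest at both ages (77.7 and 87.3 CPM per kb), above 97.8% of tested genes at P0. Smarcc2, a core subunit of the BAF complex, followed (68.4 and 42.6 CPM per kb). Next at P0 were Wac, a partner of the histone H2B ubiquitin ligase (29.9 and 23.98), and Tcf4, a basic helix-loop-helix factor (18.2 and 25.7), whose order was the reverse at P14. At the low end were Chd7, a remodeller mutated in CHARGE syndrome (2.501 and 1.60 CPM per kb), Hdac4, a class II deacetylase (2.34 and 4.25), and Asxl3, a subunit of the Polycomb deubiquitinase (4.10 and 1.28). Adnp, a homeodomain protein that works with CHD4, had at most 2.1 CPM in any library. In the annotation, 82.1% of its exonic bases are shared with Gm20716 on the same strand, to which 0 counts were assigned, so its level and its differences are uncertain. Antisense genes also cover exons of some members. Counts summed over both strand columns were 1.305 times the unstranded count for Chd8, 1.20 for Bcl11a, 1.14 for Phf12, 1.12 for Ankrd11 and 1.12 for Kdm6b, so their unstranded counts leave out reads that the strand columns assign.

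**Figure D1:**
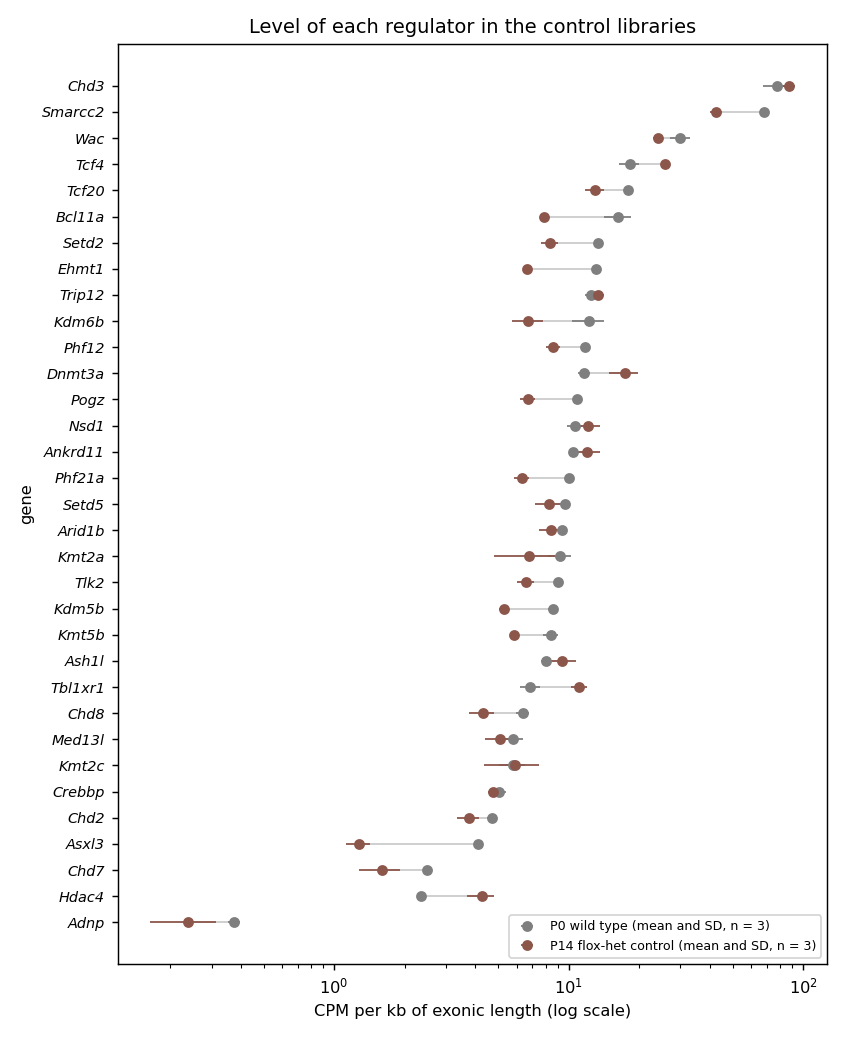
Level of each regulator in the 3 wild-type P0 forebrain libraries and the 3 P14 control hippocampus libraries, in CPM per kb of exonic length on a log axis (points and bars are mean and SD, n = 3). Chd3 is the highest at both ages, and Asxl3 shows the widest gap, from 4.10 at P0 to 1.28 at P14.

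Between the control libraries, 23 of the 33 regulators differed in level (edgeR adjusted p under 0.05, 69.7%, against 64% of all 18189 genes tested). Of these, 18 were lower in P14 hippocampus than in P0 forebrain and 5 were higher, whereas over all genes 31.7% were lower and 32.3% higher. The median log2 difference of the regulators was -0.44, against 0.00 (-0.0043) over all genes. Most differences were small: with an absolute log2 difference of at least 1 also required, 2 regulators passed, both lower (6.06%, against 28.4% of all genes, or 13.4% counting lower calls alone). Tissue, age, the floxed allele and library series cannot be told apart in this comparison, and in bulk tissue fewer cells of a type and less RNA per cell cannot be told apart either. The summed level of the 8 immature neuron markers lay between 6634 and 7100 CPM in the P0 controls and between 1910 and 2085 CPM in the P14 controls, and that of the 8 astrocyte markers between 668 and 864 CPM and between 6969 and 7199 CPM. Their part in the differences of the regulators was not tested.

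The 2 regulators past both limits were Asxl3 and Bcl11a. Asxl3 was at 66.1, 61.9 and 62.8 CPM in the P0 wild types and at 18.1, 18.8 and 22.5 CPM in the P14 controls. The groups lay far apart, with a log2 difference of -1.68 (SE 0.12, edgeR adjusted p 1.79e-11). Bcl11a, a zinc finger repressor of BAF complexes that shapes cortical projection neurons, was at 214.5, 186 and 242 CPM and at 105, 99.2 and 106 CPM. All 3 P0 libraries were above all 3 P14 libraries (log2 difference -1.05, SE 0.08, edgeR adjusted p 2.65e-10). Without the third P0 wild type 1 regulator passed, Asxl3, and Bcl11a was at -0.95. Without the third P14 control 3 passed, with Ehmt1 added (-1.01).

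Without the limit on size, 6 of the 10 enzymes here that methylate or demethylate histones were lower at P14 and 0 were called higher. Ash1l was at 0.23 (edgeR adjusted p 0.0522) and passed as higher with no filter on low counts (0.28, edgeR adjusted p 0.00503) and in 4 of 12 fits that each left out 1 library, with edgeR adjusted p from 0.0167 to 0.314 over the 12. Both demethylases were lower at P14, Kdm6b (which removes H3K27 methylation) by -0.86 and Kdm5b (which removes H3K4 methylation) by -0.68. Of 8 histone methyltransferases 4 were lower and 0 higher: Ehmt1, which methylates H3K9, by -0.98, Setd2, the writer of H3K36 trimethylation, by -0.68, Kmt5b, which acts on H4K20, by -0.52, and Setd5 by -0.23. Ehmt1 was at 109, 104 and 106 CPM in the P0 wild types and at 52.2, 53.4 and 56.1 CPM in the P14 controls, with little spread in either group. Of 7 remodellers 4 were lower: Smarcc2 (-0.68), Chd7 (-0.65), Chd8 (-0.57) and Chd2 (-0.33). Tcf20 (-0.47), Pogz, a zinc finger protein that binds HP1 (-0.69), Phf21a, a reader of unmethylated H3K4 (-0.68), Phf12, a Sin3 partner (-0.45), Tlk2, a kinase of the histone chaperone ASF1 (-0.46), and Wac (-0.32) were lower too. These are log2 differences with edgeR adjusted p from 7.83e-11 to 0.0258. The call of Setd5 was lost without the first P14 control, the second P14 control, the first P0 wild type or the third P0 wild type (edgeR adjusted p 0.0770 to 0.136).

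The 5 that were higher at P14 were Hdac4 (0.86), Tbl1xr1, a subunit of the NCoR corepressor (0.69), Dnmt3a, the de novo DNA methyltransferase (0.58), Tcf4 (0.50) and Ankrd11, a partner of histone deacetylases (0.19), with edgeR adjusted p from 2.22e-08 to 0.0477. The call of Ankrd11 held in 4 of 12 fits that each left out 1 library, and its difference was 0.08 (edgeR adjusted p 0.334) without the third P14 control. Hdac4 was at 38.0, 36.7 and 36.3 CPM in the P0 wild types and at 66.5, 58.8 and 76.5 CPM in the P14 controls. Its groups did not overlap although the P14 values spread. The 10 regulators that did not pass were Chd3, Adnp, Arid1b, Kmt2a, Kmt2c, Ash1l, Nsd1, Crebbp, Trip12 and Med13l. Kmt2c, an H3K4 methyltransferase, was at 132, 101 and 119 CPM at P0 and at 93.8, 112 and 156 CPM at P14, so its P14 spread covered its P0 range.

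The knockouts, which share no library with the controls, were compared in the same way. Of the 33 regulators 24 passed at any size (72.7%, against 64.3% of all genes), 18 lower (against 32.2%) and 6 higher (against 32.1%), and the median log2 difference was -0.32. With the size limit 3 passed, all lower (9.09%, against 28.8%, or 12.8% counting lower calls alone): Asxl3 (-1.91), Kdm6b (-1.14) and Ehmt1 (-1.11). The 6 higher were Hdac4 (0.98), Dnmt3a (0.89), Chd3 (0.48), Tbl1xr1 (0.43), Ash1l (0.36) and Ankrd11 (0.35), and Bcl11a (-0.98) and Hdac4 lay just inside the limit.

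At P0, the knockout forebrain showed no called change in the regulators. Of 33, 0 passed (edgeR adjusted p under 0.05), against 0.909% of the 16176 genes tested, where 147 were called. An unadjusted p under 0.05 was reached by 2 (6.06%, against 16.1%), both higher (against 6.95% of all genes), and DESeq2 called 0. The log2 fold changes lay between -0.17 (Adnp) and 0.32 (Kdm6b), with 18 above 0 (54.5%, against 49.9% of all genes) and a median of 0.03, against a median of -0.00034 over all genes. Genotype groups did not overlap for 3 regulators (9.09%, against 21.8% of all genes). The count with an unadjusted p under 0.05 was 8, all higher, with a gene length offset. It was 0 to 7 with 1 library left out. No share over all genes is given for these fits. Among the 1467 tested genes with at least 10000 exonic bases, 36.9% were above 0 at P0, with a median of -0.049.

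Kdm6b (GRCm38 chromosome 11, 69398508 to 69413675, minus strand) had the smallest p. It was at 85.5, 71.2 and 97.6 CPM in the wild types and at 102, 106 and 110 CPM in the knockouts. All knockouts were above all wild types, by 0.32 on the log2 scale (SE 0.10, edgeR adjusted p 0.145, exact two-sided permutation p 0.1, the smallest that 3 against 3 allows). It passed without a filter on low counts (edgeR adjusted p 0.0194). Chd2, a remodeller mutated in childhood epilepsy, was at 67.0, 64.3 and 70.8 CPM in the wild types and at 83.1, 84.1 and 69.6 CPM in the knockouts. The groups overlapped through the third knockout (log2 fold change 0.22, SE 0.09, edgeR adjusted p 0.253). A same-strand transcript, 1810026B05Rik, shares 18.4% of Chd2's exonic bases, so its count is uncertain. Phf12 was at 59.2, 54.8 and 58.9 CPM and at 62.2, 64.0 and 62.9 CPM, a narrow gap with no overlap (0.12, SE 0.08, edgeR adjusted p 0.479).

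The third P0 knockout and the third P0 wild type carry library numbers 1415 and 1416, and the other 4 P0 libraries carry 1407 to 1410. Within those 4, 8 regulators passed, all higher in the knockouts (24.2%, against 12.9% of all genes called and 5.82% called higher). They were Kdm6b (0.41), Chd2 (0.35), Med13l (0.31), Tcf4 (0.29), the ubiquitin ligase Trip12 (0.28), Kmt5b (0.26), Bcl11a (0.22) and Kdm5b (0.20), with edgeR adjusted p from 0.00142 to 0.0464. Med13l lies on chromosome 5 (from 118560679), as does Auts2 (from 131437333). Among 1469 genes with at least 10000 exonic bases, 17.1% were called in this fit and 8.71% were called higher. These 4 libraries come from 2 mice of each genotype, and any other difference between those mice cannot be told apart from genotype. Trip12, for example, was at 241 and 252 CPM in these knockouts and 212.1 and 194 CPM in these wild types, but at 191 CPM in the third knockout and 215.2 CPM in the third wild type. Tcf4 had the same shape, at 593 and 626 against 549 and 450 CPM in the first 4 libraries, and at 453 against 495 CPM in the last pair. Summed cell type markers also separated the P0 genotypes over all 6 libraries. The 8 immature neuron markers lay between 6634 and 7100 CPM in the wild types and between 7202 and 7447 CPM in the knockouts, with 2 called higher, and the 5 forebrain markers between 498 and 602 CPM and between 677 and 778 CPM, with 1 called higher. The 8 dentate granule cell markers lay between 210 and 245 CPM and between 164 and 179 CPM, with 2 called lower, and the 8 astrocyte markers between 668 and 864 CPM and between 620 and 625 CPM, with 1 called lower. The oligodendrocyte, choroid plexus, striatal and pyramidal lists separated too. Their part in the values of the regulators was not tested. Leaving out the third knockout alone gave 3 calls, all higher, Chd2, Tcf4 and Trip12 (9.09%, against 4.69% of all genes, or 1.54% counting higher calls alone). In that knockout, 13 of the 33 regulators were above the wild-type mean, against 21 and 28 in the other knockouts, and Asxl3 was at 47.4 CPM against 64.4 and 66.0 CPM in the other knockouts.

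**Figure D2:**
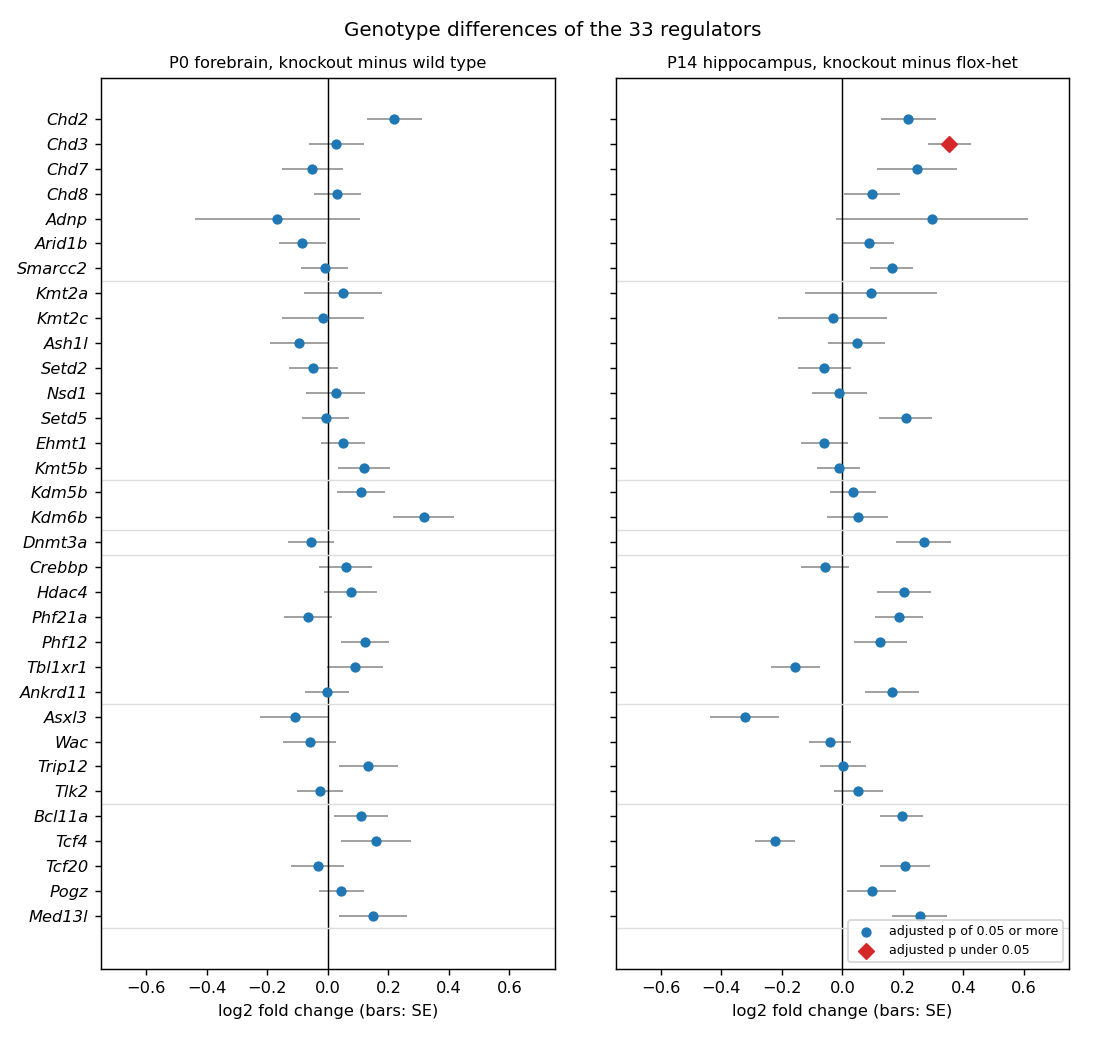
Log2 fold change of each regulator between genotypes at P0 (left) and P14 (right), with SE as bars, grouped by role from remodellers at the top to transcription factors at the bottom. Points at P0 lie around 0, whereas at P14 the 7 remodellers all lie above 0 and Chd3 alone passes.

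At P14, 1 regulator passed in the knockout hippocampus, Chd3, which rose (3.03% of the regulators, against 1.99% of the 17208 genes tested, or 1.21% counting higher calls alone). Counting Chd3, 23 of 33 were above 0 (69.7%, against 48.5% of all genes), and the median log2 fold change was 0.10, against -0.01 over all genes. Chd3 is also among the 12 regulators that had an unadjusted p under 0.05 (36.4%, against 15.2%). Of those 12, 10 were higher (against 7.84% of all genes) and 2 lower in the knockouts. With 1 library left out the 12 became 3 to 21, counts for which no share over all genes is given. The groups did not overlap for 7 (21.2%, against 20% of all genes), 5 of them higher in the knockouts (against 9.43%). Because the regulators were chosen with earlier results of these data known, these shares do not describe an independently chosen set.

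Chd3 (ENSMUSG00000018474, chromosome 11, 69343273 to 69369406, minus strand) was at 711, 713 and 788 CPM in the controls and at 948, 960.5 and 897 CPM in the knockouts. This gave 737 ± 43.9 CPM in controls and 935 ± 33.4 CPM in knockouts (mean ± SD, n = 3 per group), and every knockout was above every control. The log2 fold change was 0.35 (SE 0.07, edgeR adjusted p 0.0175, exact permutation p 0.1). The size held when any 1 library was left out (0.32 to 0.41), but the call held only without the third control, and the edgeR adjusted p was between 0.0507 and 0.145 in the other 5 fits. The exact test cannot go below that p with 3 against 3. At P0 the same gene was at 631, 587 and 751 CPM in wild types and 623, 689 and 702 CPM in knockouts, with overlapping groups (0.03, SE 0.09).

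The gene next in rank was Tcf4, which was lower. It was at 720, 677 and 718 CPM in the controls and at 618, 577 and 603 CPM in the knockouts, with no overlap (-0.22, SE 0.07, edgeR adjusted p 0.112, exact permutation p 0.1). Asxl3 was the other lower regulator in the group of 12, at 18.1, 18.8 and 22.5 CPM against 14.9, 16.1 and 16.2 CPM (-0.32, SE 0.11, edgeR adjusted p 0.181). Neither passed over all genes with all 6 libraries. Dnmt3a, on chromosome 12 from 3806007 to 3914443, was at 266, 265 and 336 CPM in the controls and at 349, 334 and 353.9 CPM in the knockouts. The third control lay above 1 knockout, so the groups overlapped (0.27, SE 0.09, edgeR adjusted p 0.165). Bcl11a, on chromosome 11 from 24078056 to 24174123, was at 105, 99.2 and 106 CPM against 120, 113 and 119 CPM, with no overlap (0.20, SE 0.07, edgeR adjusted p 0.190).

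**Figure D3:**
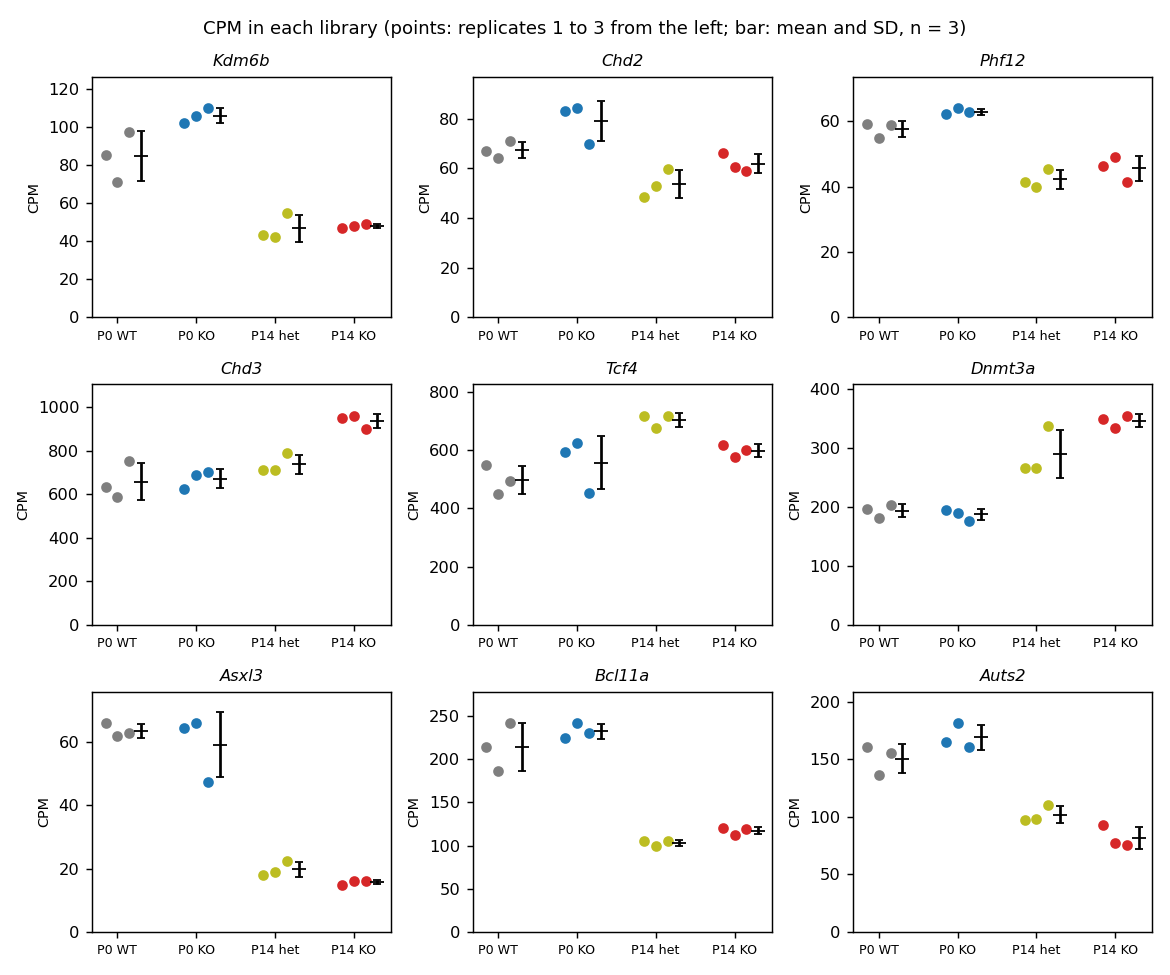
CPM of the 8 regulators described in full and of Auts2 in each library, on linear axes from 0, with replicates 1 to 3 from the left in each group and the mean and SD (n = 3) beside them. Chd3 separates the P14 groups (711 to 788 against 897 to 960.5 CPM). The third P14 control is the highest of its group for every gene shown except Tcf4, narrowly so for Bcl11a.

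By role, at P14 all 7 remodellers were above 0, with a median of 0.22. They include Adnp (0.30, SE 0.32) and Chd2, whose counts are uncertain. The 8 histone methyltransferases had a median of -0.01 and 3 above 0, among them Setd5 (0.21, edgeR adjusted p 0.271). The demethylases Kdm5b and Kdm6b were at 0.04 and 0.05. Among the acetylation and corepressor proteins 4 of 6 were above 0, including Hdac4 (0.20, edgeR adjusted p 0.301) and Phf21a (0.19, edgeR adjusted p 0.279). Among the transcription factors and Mediator proteins 4 of 5 were, with Med13l, of the Mediator kinase module, at 0.26 (edgeR adjusted p 0.181) and Tcf20 at 0.21 (edgeR adjusted p 0.244). Of the 4 ubiquitin and chaperone pathway proteins 2 were above 0, with a median of -0.02 and Asxl3 the lowest (-0.32). Whether roles differ from each other was not tested.

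These values moved with single libraries. The members with an unadjusted p under 0.05 numbered 3 (1 higher) without the second control, 4 (2 higher) without the first control, 4 (3 higher) without the first knockout, 8 (5 higher) without the second knockout, 10 (8 higher) without the third knockout and 21 (19 higher) without the third control. Shares over all genes are not given for these counts. Over all genes, 104 to 1808 passed (edgeR adjusted p under 0.05) in the same fits, so calls moved beyond the regulators too. The median of the regulators was 0.035 without the first control and 0.19 without the third. In the third control, compared with the mean of the other 2 controls, 30 of the 33 regulators were higher, by a median of 0.23 on the log2 scale. Kmt2a, the founding H3K4 methyltransferase of its family, was at 84.7 and 106 CPM in the first 2 controls, 149 CPM in the third and 124, 127 and 109 CPM in the knockouts. Kmt2c and Ash1l, an H3K36 methyltransferase, had the same shape, with 156 and 162 CPM in the third control against at most 119 and 148 CPM in any knockout. In this library the summed level of the 8 choroid plexus markers was 2567 CPM, against 153 and 977 CPM in the other controls and 1375 to 2038 CPM in the knockouts, and mitochondrial genes took 4.58% of counts, against 5.09% to 5.24% in the other 5 P14 libraries. Their part in the levels of the regulators was not tested.

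Without the third control, 14 regulators passed (42.4%, against 10.3% of 17491 genes), 13 higher and 1 lower in the knockouts, whereas over all genes 5.84% were called higher and 4.5% lower. Long genes were called more often in this fit: among 1485 genes with at least 10000 exonic bases, 20.8% were called and 16.3% were called higher. The 13 included the remodellers Chd3 (0.41), Chd7 (0.41), Chd2 (0.31) and Smarcc2 (0.21). They also included Dnmt3a (0.40), Med13l (0.38), Kmt2a (0.35), Setd5 (0.32), Hdac4 (0.31), Tcf20 (0.29), Ankrd11 (0.29), Phf21a (0.24) and Bcl11a (0.22), with edgeR adjusted p from 0.000306 to 0.0431 over the 13. Tcf4 was the lower one (-0.20, edgeR adjusted p 0.0420). The median of all 33 was 0.19. This fit sets 3 knockouts against 2 controls. Leaving out any other P14 library left 0 of the regulators called. With an offset for gene length and all 6 libraries, 3 passed, Chd3, Dnmt3a (0.27, edgeR adjusted p 0.0349) and Med13l (0.26, edgeR adjusted p 0.0486). The share of all genes called with that offset is not given, so these 3 calls have no background to be read against.

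**Figure D4:**
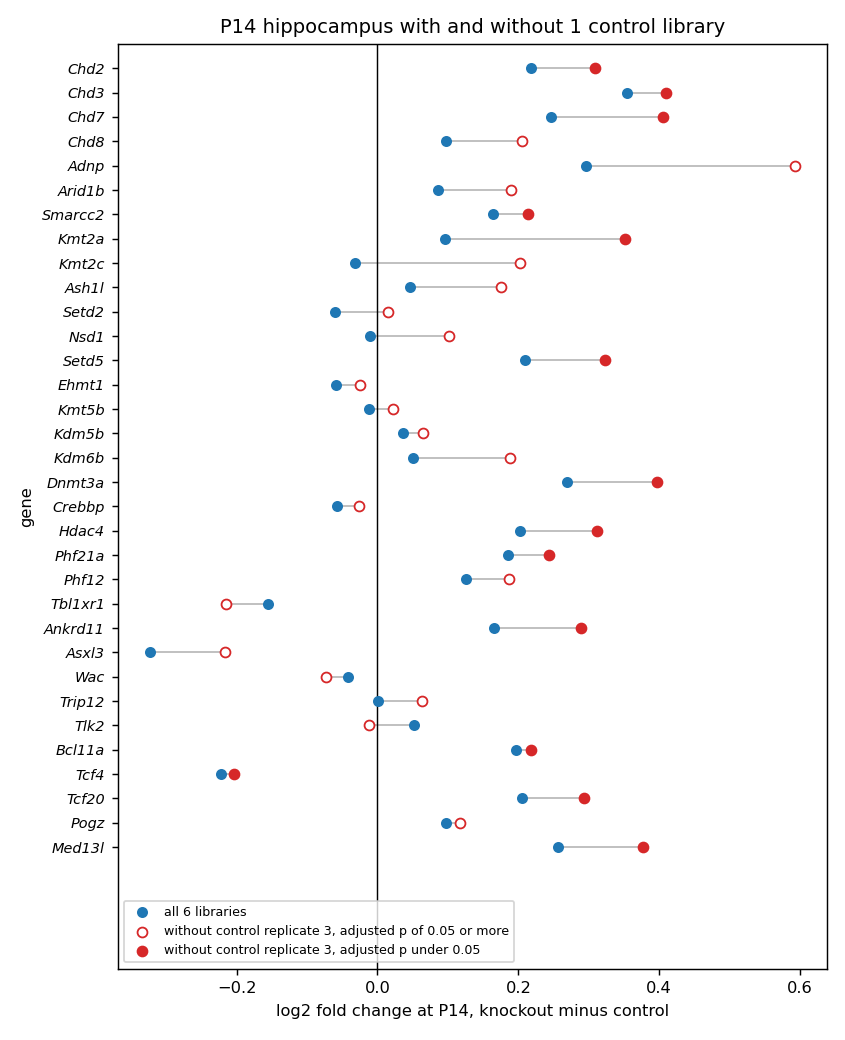
Log2 fold change of each regulator at P14 with all 6 libraries (blue) and without the third control (red, filled where the edgeR adjusted p is under 0.05). Most points move to the right, the number past the threshold goes from 1 to 14, and Tcf4 is the only called gene to the left of 0.

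Many regulators were low or high in the same libraries in which long genes were. All 8 histone methyltransferases were the lowest of their group in the third P0 knockout and the highest of theirs in the third P14 control. Kmt2a, Kmt2c, Ash1l and Nsd1 were at 133, 94.2, 94.9 and 162 CPM in that knockout and at 149, 156, 162 and 241 CPM in that control. For Ehmt1 the gap in the knockouts was narrow (109.4 against 109.7 CPM in the second knockout). Other regulators were also lowest in the third P0 knockout, among them Trip12, Tcf4, Tcf20, Med13l and Asxl3. Crebbp, Kdm6b, Smarcc2, Chd3 and Phf21a were instead the highest of their group in the third P0 knockout, at 75.2, 109.9, 414, 702 and 88.3 CPM. Co-variation was not tested. The second P0 wild type was low for many regulators, with 4 of 33 above the mean of the other wild types and Kdm6b at 71.2 CPM. Within groups the median SD of log2 CPM over the regulators was 0.07 in P0 wild types, 0.12 in P0 knockouts, 0.14 in P14 controls and 0.06 in P14 knockouts, each below the median over all tested genes (0.14, 0.17, 0.16 and 0.12). The widest in each group were Kdm6b in the P0 wild types (0.23), Kmt2c in the P0 knockouts (0.27), Kmt2a in the P14 controls (0.41) and Adnp, with few counts, in the P14 knockouts (0.28).

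**Figure D5:**
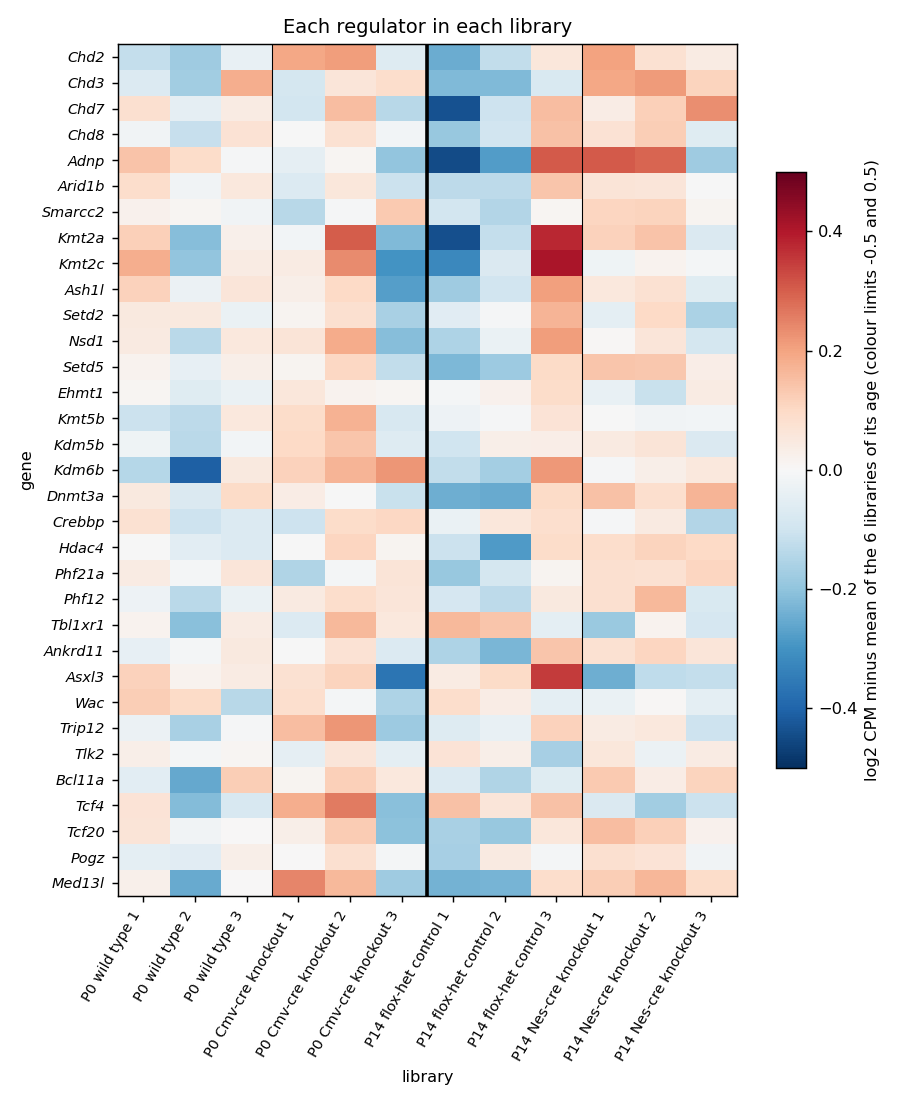
Log2 CPM of each regulator in each library minus the mean of the 6 libraries of the same age, in colour from -0.5 (blue) to 0.5 (red). The column of the third P14 control is red for most genes and that of the third P0 knockout blue for Kmt2c, Asxl3 and Ash1l.

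Summed cell type markers also separated the P14 groups. The 8 dentate granule cell markers summed to between 574 and 625 CPM in the controls and between 393 and 432 CPM in the knockouts, with 7 of the 8 called lower. The 8 striatal projection neuron markers summed to between 73.5 and 103 CPM and between 112 and 198 CPM, with 1 of the 8 called higher. The 7 hippocampal pyramidal cell markers summed to between 848 and 872 CPM in the controls and between 887 and 964 CPM in the knockouts, with 2 called higher and 1 lower. The 6 hippocampus markers summed to between 1163 and 1488 CPM in the controls and between 963 and 1051 CPM in the knockouts, with 2 called lower and 0 of 6 above 0. The 8 endothelial markers, with none called, summed to between 238 and 246 CPM and between 192 and 211 CPM. All markers of these lists had counts in every library. The part of these shifts in the P14 values of Chd3 and the other regulators was not tested.

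The genotype effect was then compared between the contexts. No regulator passed the interaction test over all 12 libraries (0 of 33, against 1.79% of 18189 genes; edgeR, and 0 by DESeq2), and 4 had an unadjusted p under 0.05 (12.1%, against 15.3%). These were Tcf4 (-0.40, SE 0.14, edgeR adjusted p 0.164), Chd3 (0.31, SE 0.12, edgeR adjusted p 0.223), Dnmt3a (0.31, SE 0.12, edgeR adjusted p 0.228) and Phf21a (0.24, SE 0.11, edgeR adjusted p 0.317), as P14 minus P0 log2 fold changes. The call of Chd3 at P14 and not at P0 is therefore not shown to differ between the contexts. Tcf4 was above its controls in 2 of 3 P0 knockouts and below them in 3 of 3 P14 knockouts. Its interaction passed without the third P0 knockout (-0.53, edgeR adjusted p 0.00998), with no filter on low counts (-0.42, edgeR adjusted p 0.0268) and with a gene length offset (-0.49, edgeR adjusted p 0.0407). With 1 library left out it passed in 1 of 12 fits, with values from -0.53 to -0.31 (edgeR adjusted p 0.00998 to 0.362). The interaction of Dnmt3a passed without the third P14 control (0.43, edgeR adjusted p 0.0170). That was 1 of 12 such fits, with edgeR adjusted p up to 0.483.

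Other genes of the same complexes were read from 6 lists of 111 genes that hold no member of the 33, of which 110 were tested in each context. At P0, 0 of 110 passed in either direction by edgeR, against 0.909% of all genes, and 15 had an unadjusted p under 0.05 (against 16.1% of all genes). At P14, 1 of 110 passed, against 1.99% of all genes, and 16 had an unadjusted p under 0.05 (against 15.2%). These counts were near or below the shares over all genes. The gene was Chd5, the neuronal paralog of Chd3 in the NuRD complex. It was at 211, 216 and 252 CPM in the controls and at 297, 302 and 272 CPM in the knockouts, every knockout above every control (0.37, SE 0.08, edgeR adjusted p 0.0309). Like Chd3 it was called without the third control and not without any other library (edgeR adjusted p 0.0630 to 0.198), nor with a GC content offset (0.31, edgeR adjusted p 0.0753). At P0 Chd5 was at 237, 227 and 252 CPM in the wild types and at 212.7, 235 and 239.9 CPM in the knockouts, with overlapping groups. The median P14 log2 fold change was 0.00 over the 16 other CHD and NuRD genes (0.0017), 0.01 over 25 BAF and PBAF genes, 0.04 over 15 tested COMPASS genes, 0.05 over 23 histone and DNA methylation genes, 0.01 over 16 corepressor genes and 0.02 over 16 Mediator and acetyltransferase genes. Over all 110 it was 0.03, against 0.10 for the 33 regulators, and that difference was not tested. Of the 110, 66 were above 0 at P14, among them 8 of the 16 CHD and NuRD genes and 14 of the 25 BAF and PBAF genes.

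Between the control libraries the listed genes were mostly lower at P14 too. Of 110, 9 passed with an absolute log2 difference of at least 1, all lower in P14 hippocampus (against 13.4% of all genes called lower), and the median was -0.32. In the BAF and PBAF list 5 of 25 were lower, among them Bcl7c (-2.96), Smarce1 (-1.34) and Dpf1 (-1.30). The maintenance DNA methyltransferase Dnmt1 (-1.23) was lower while the de novo enzyme Dnmt3a was higher (0.58), and the H3K4 demethylase Kdm1a (-1.02), the H3K36 methyltransferase Nsd2 (-1.17) and the deacetylase Hdac2 (-1.09) were lower too, with edgeR adjusted p from 3.86e-17 to 1.13e-10 over the 9 genes.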

How the data were processed

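RNA from 12 male mice was purified with Trizol and DNase I, and TruSeq libraries were read as 150 bp pairs, per the labels' protocols. The authors deposited raw counts of reads per Ensembl gene. STAR 2.7.5a, edgeR 3.12 and GRCm38 are named in the submitters' processing notes, and annotation release 102 in the deposited files' names. Trimming and the handling of reads in several places are not given in the sources used here. Both strand columns held about equal shares (49.88% to 49.98% in the first), so the unstranded column was used. Every line named a gene. Symbols, coordinates and exonic lengths came from GENCODE vM21 on GRCm38 (55227 of 55487 identifiers).

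From the counts, genes were tested with edgeR 4.0.16 in R 4.3.3 (filterByExpr, TMM, robust glmQLFit, glmQLFTest), with Benjamini-Hochberg adjustment over all genes tested and a threshold of 0.05. Genotype fits used the 6 libraries of an age, and interaction and level fits all 12. Printed CPM use TMM factors over all 12 libraries, and log2 CPM a prior count of 2. The SE was derived from the coefficient and its F statistic. Tests were tried on simulated data. Alternatives were RLE scaling, no filter, DESeq2 1.42.0, GC content and gene length offsets, 1 fit on all libraries, the library number series as a term or only its first 4 libraries, no size limit, and leaving out each library. The sum of the strand columns was added after overlaps had been seen. Replicates were numbered in accession order. Described in full were members called in a genotype or interaction test, the 3 with the smallest p in each, up to 2 in each direction with the largest called control difference, and Auts2. Members and lists were chosen with earlier results of these data known. Reads carry no molecular identifiers, so they are not independent molecules. Ehmt1, Hdac4, Kmt2a, Kmt2c, Trip12 and the listed genes named for their control level were picked after their values were seen.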

Additional observations from a re-analysis of the deposited data

How the results depend on the processing

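No paired analysis was possible because the replicate numbers follow accession order and the labels give no pairing. The number of genes called at P0 was 147 as reported, 625 with no filter on low counts, 374 by DESeq2, 390 with a GC content offset, 284 in 1 fit on all 12 libraries, 84 on the sum of the strand columns, 465 when the series of library numbers was a term, 2107 in libraries 1407 to 1410 alone and 1 to 775 with 1 library left out. Of the regulators, 1 was called at P0 with no filter, 8 in libraries 1407 to 1410, and 0 to 3 with 1 library left out. At P14 (342 genes), 814 were called with no filter, 534 by DESeq2 and 104 to 1808 with 1 library left out. The regulators called numbered 2 with no filter, 3 with a gene length offset and 0 to 14 with 1 library left out, and their median then lay between 0.035 and 0.19. The interaction (326 genes) gave 646 with no filter, 531 by DESeq2 and 125 to 905 with 1 library left out, and 1 regulator with no filter, 1 with a gene length offset and 0 to 1 with 1 library left out. Without a size limit, the control level comparison called 11642 genes and 23 regulators and the knockout level comparison 11694 genes and 24 regulators. With 1 library left out, 1 to 3 regulators passed the control level comparison, with a median between -0.47 and -0.35. The numbers of genes called over all genes with the gene length offset are not given. Causes were not tested.

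Some signs turned, also among members not described in full, none of them past the threshold. In libraries 1407 to 1410 alone 9 members turned, Kmt2c among them (from -0.016 to 0.14), and without the third P14 control 5 did, with Kmt2c going from -0.032 to 0.20 and Nsd1 from -0.011 to 0.10. Without the third P0 knockout 10 turned. At P0, Dnmt3a was at 0.018 with a gene length offset and 0.031 in libraries 1407 to 1410, and Asxl3 at 0.029 in those libraries. With 1 library left out, Asxl3 lay between -0.19 and 0.032 and Chd3 between -0.047 and 0.15. At P14, Kdm6b was at -0.027 with a GC content offset and between -0.020 and 0.19 with 1 library left out. In the interaction, Phf12 was at 0.00052 by DESeq2 and between -0.069 and 0.048, Bcl11a at -0.0033 with a gene length offset and between -0.0049 and 0.16, and Chd2 between -0.10 and 0.068, the ranges with 1 library left out. The knockout level difference of Tcf4 then lay between -0.023 and 0.20. Adnp, with few counts, is the member whose values depth limits most.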
